A study of Mus musculus with 3 samples.

Results

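The classical and non-classical major histocompatibility complex (MHC) genes of the mouse, the H2 genes of chromosome 17, were described across 3 maps of DNA methylation in epididymal fat. Members were the protein-coding RefSeq records on chromosome 17 (build GRCm38.p6, the assembly behind mm10) whose symbol starts with H2-, without H2-Ke6, which carries the prefix and encodes no MHC molecule. This gave 34 genes of 21774 protein-coding genes with a place on a chromosome, 25 of class I and 9 of class II. H2-Q8, H2-Q9 and H2-T18 also carry chromosome 17 in the gene table, but their records stand outside the ordered run of that chromosome, as those of separate scaffolds do, and were not analysed here. The maps came from MeDIP-seq, in which an antibody against methylated cytosine pulls down DNA fragments and each place where they pile up is listed as a peak. All animals were male C57BL/6J mice that began at 6 weeks of age and were 16 weeks old when the fat was taken, after 10 weeks on their food. In the ND group fat supplied 10% of the energy, in the HFD group 60%, and the FAD group ate the HFD food while drinking water that held 20 μg/mL folic acid. Each diet was represented by 1 library, whether of 1 mouse or of a pool is not stated, so no difference below has a replicate check and none was tested.

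The lists held 101532 peaks in ND, 135124 in HFD and 95501 in FAD, and the median peak widths were 507, 587 and 447 bp. Read depth is unknown from peak lists, and a difference in depth and a difference in methylation cannot be told apart where a peak is missing. Fat tissue is a mixture of cells, and a call in bulk DNA does not tell a region methylated in some cells from one methylated in most. A list of methylated regions holds no RNA, so the tissue label could not be checked on expressed markers.

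Class I molecules display peptides from inside a cell to cytotoxic T cells, with H2-K1 and H2-D1 as the classical heavy chains of C57BL/6 mice and the Q, T and M series as non-classical relatives. Class II molecules display peptides from ingested protein to helper T cells. H2-Aa and H2-Ab1 encode the alpha and beta chains of I-A, H2-Eb1 and H2-Eb2 encode beta chains of the E series, and H2-DM and H2-O govern which peptides are loaded. In fat, macrophages and adipocytes can present antigen to resident T cells. The antibody reports methylated cytosine, which is considered here at CG dinucleotides, and a region with few CG can give little signal.

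The promoters of these genes differ widely in how many CG they offer, so 5 are shown. Each line is the 250 bases before a start site, 5′ to 3′ on the strand of the gene, from RefSeq (GRCm38.p6), with CG in capitals. H2-K1 (chr17:34000348-34000597, minus strand) and H2-D1 (chr17:35262844-35263093, plus strand) stand for classical class I, H2-Aa (chr17:34287824-34288073, minus strand) and H2-Eb1 (chr17:34305617-34305866, plus strand) for classical class II, and H2-M5 (chr17:36989534-36989783, minus strand) is the 1 member with a peak across its start site.
H2-K1: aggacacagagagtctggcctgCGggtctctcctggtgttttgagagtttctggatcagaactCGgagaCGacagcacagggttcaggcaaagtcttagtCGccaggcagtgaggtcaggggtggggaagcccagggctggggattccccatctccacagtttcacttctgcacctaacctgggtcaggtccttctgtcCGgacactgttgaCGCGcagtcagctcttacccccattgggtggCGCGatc
H2-D1: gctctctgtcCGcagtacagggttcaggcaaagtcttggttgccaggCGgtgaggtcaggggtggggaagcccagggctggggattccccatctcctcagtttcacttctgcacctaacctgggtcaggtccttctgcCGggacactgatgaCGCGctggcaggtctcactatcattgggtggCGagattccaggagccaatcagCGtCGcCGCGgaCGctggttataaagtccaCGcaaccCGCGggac
H2-Aa: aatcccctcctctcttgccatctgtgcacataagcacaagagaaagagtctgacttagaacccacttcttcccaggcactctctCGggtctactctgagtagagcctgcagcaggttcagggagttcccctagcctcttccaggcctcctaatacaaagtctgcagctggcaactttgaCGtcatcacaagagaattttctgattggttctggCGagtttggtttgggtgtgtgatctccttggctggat
H2-Eb1: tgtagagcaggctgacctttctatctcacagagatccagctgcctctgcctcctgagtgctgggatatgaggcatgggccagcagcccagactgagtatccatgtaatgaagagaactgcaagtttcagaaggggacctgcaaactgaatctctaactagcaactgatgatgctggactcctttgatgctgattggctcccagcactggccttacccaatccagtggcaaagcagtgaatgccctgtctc
H2-M5: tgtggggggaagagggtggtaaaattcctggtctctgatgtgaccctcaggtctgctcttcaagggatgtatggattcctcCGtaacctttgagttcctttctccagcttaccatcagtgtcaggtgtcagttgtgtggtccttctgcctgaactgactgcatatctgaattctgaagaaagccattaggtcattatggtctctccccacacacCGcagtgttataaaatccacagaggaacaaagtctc
Over the full 300 bases, which add 50 bases after the start site, H2-K1 held 14 CG, H2-D1 19, H2-Aa 3, H2-Eb1 0 and H2-M5 4. A promoter sequence was found for 31 of the 34 genes, all but H2-Ab1, H2-Q1 and H2-T24, and 3 genes had several, giving 34 sequences. Counting the first sequence of each gene, class I promoters held a median of 4 CG (0 to 19, n = 23) and class II promoters a median of 3 (0 to 29, n = 8), with the 29 at H2-DMa. The H2-DMa start site used lies just past the end of the record of the neighbouring gene Brd2. The 7 promoters of H2-K1, H2-D1 and the Q series had a median of 12, and the 12 of the M series a median of 2. All 32851 RefSeq promoters of this length had a median of 7.

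Almost no H2 promoter was covered by a peak. The H2-M5 promoter was overlapped in ND and HFD, and the FAD peak of that gene stopped 184 bp short of it, so the libraries differed here in where the peak ended. None of the other 33 sequences was overlapped in any library. Over all promoters 3.34% were overlapped in ND, 4.79% in HFD and 2.88% in FAD, so a count of 1, 1 and 0 among 34 is close to that background. The overlap was lowest at both ends of the CG range. Among promoters with 0 to 3 CG it was 1.53%, 2.64% and 1.04% in ND, HFD and FAD, with 4 to 10 CG it was 6.47%, 9.77% and 5.6%, with 11 to 15 CG 7.85%, 9.37% and 7.26%, and with 16 or more 1.32%, 1.56% and 1.26%. H2-K1 falls in the band with 11 to 15 CG, H2-D1 in that with 16 or more, and H2-Aa and H2-Eb1 in that with 0 to 3.

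Short motifs set the promoters of both classes side by side. CCAAT, part of the Y box that class II promoters are known for, was found on either strand in 7 of 8 class II promoters and 20 of 23 class I promoters, against 37.4% of all RefSeq promoters of this length. TATAAA, the letters of a TATA box, was found on either strand in 14 of 23 class I promoters and in 0 of 8 class II promoters, against 13.6% of all. Over the full 300 bases H2-K1 and H2-D1 held both motifs, and H2-Aa and H2-Eb1 held CCAAT alone. The TATAAA match of H2-K1 falls outside the 250 bases printed above. Each motif was counted by itself, whether or not it overlapped the other. A match is letters in a window and no measurement of binding, and a missing match says only that these letters are not there.

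A gene was then called marked when a peak overlapped its record extended by 2000 bp on each side. In ND 12 of the 34 genes were marked (35.3%), in HFD 12 (35.3%) and in FAD 11 (32.4%). Of all protein-coding genes, 64.9% were marked in ND, 71.8% in HFD and 62.2% in FAD. H2 records are short, with a median of 4528 bp against 17219 bp. Among genes no longer than the longest member (19409 bp) the background was 46% in ND, 54.4% in HFD and 42.5% in FAD. For records up to 5000 bp it was 27.5%, 33.1% and 24.2%, and of the 20 members that short 4, 5 and 5 were marked, a share near that background. The number of peaks per gene had a median of 0 in each library, against 1, 2 and 1 over all genes.

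A larger share of class II than of class I genes was marked in every list, and their records are longer. In ND 6 of 9 class II genes were marked, in HFD 5 and in FAD 4, with a median record of 7039 bp. Of the 25 class I genes, with a median of 4252 bp, 6, 7 and 7 were marked. Among all genes no longer than the longest member the shares were 46%, 54.4% and 42.5% in ND, HFD and FAD. For records up to 5000 bp, as 19 of the class I records were, they were 27.5%, 33.1% and 24.2%. In all, 9 genes were marked in every library, 5 in some libraries and 20 in none. Of all 21774 protein-coding genes, whose records are longer at the median, 12551 were marked in every library and 5524 in none.

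**Figure D1:**
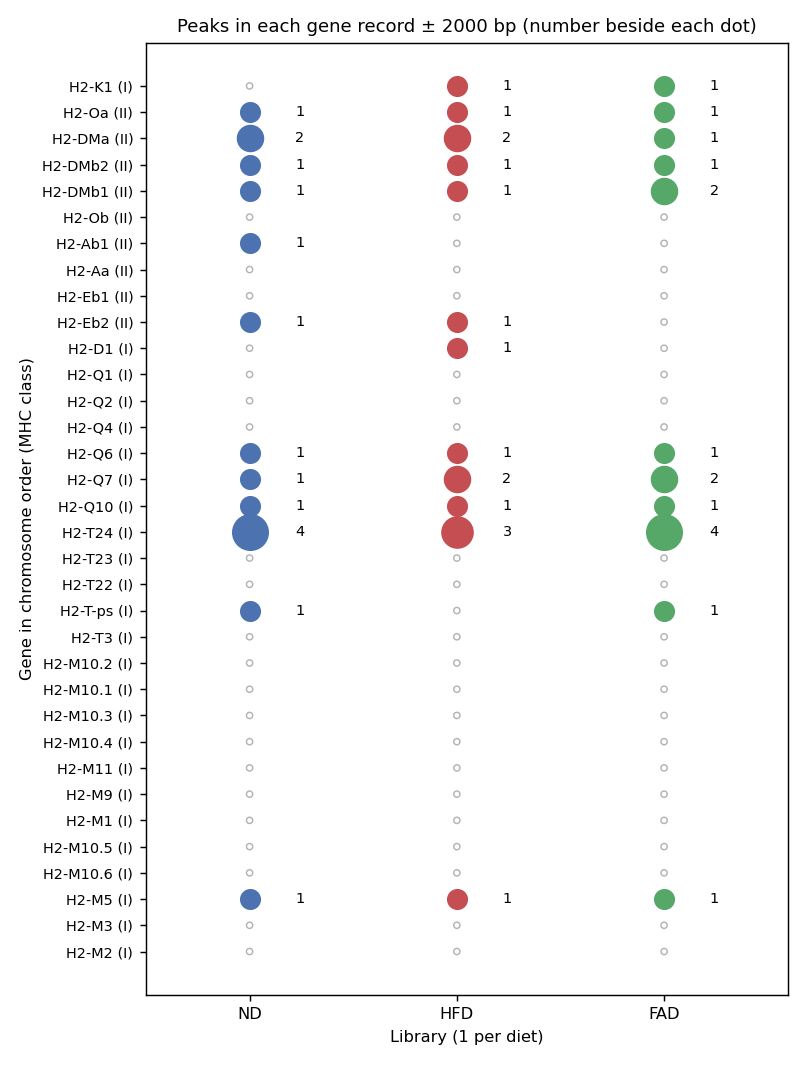
Number of peaks in the record of each H2 gene with 2000 bp on each side (rows, in chromosome order, class in brackets) in the ND, HFD and FAD libraries (columns). Filled dots are scaled to the number printed beside them and small open dots are 0; H2-T24 has the most peaks (4, 3 and 4), and the genes from H2-M10.2 to H2-M10.6 and H2-M3 and H2-M2 have none.

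The class II loading genes carried most of the class II peaks, and in all 3 libraries. H2-Oa, the alpha chain of the DO modulator, had 1 peak in each library, with scores of 222 in ND, 277 in HFD and 148 in FAD. The score is the authors' own, on a scale that was not stated, and is read only within a list: these peaks stood at percentiles 84.6, 89.2 and 73.2 of their lists. They spanned 916, 1129 and 977 bp at the far end of the gene, and together covered chr17:34094049-34095249, which the lncRNA gene BC051537 also overlaps. H2-DMb2 and H2-DMb1, neighbouring copies of the DM beta chain gene, each had 1 peak inside the record in every library. The H2-DMb2 peaks scored 248, 169 and 143 in ND, HFD and FAD, and the H2-DMb1 peaks 202, 197 and 154. The peaks ended 2337 to 2492 bp before the end of the H2-DMb2 record and 2216 to 2505 bp before that of H2-DMb1. Distances from the start site were less alike, with midpoints at 3635 to 3672 bp for H2-DMb2 and 4358 to 4479 bp for H2-DMb1. The bodies of the 2 genes were not aligned, so whether the marked places correspond was not tested. Their promoters were identical in 62.3% of aligned columns, and the handling of reads that match several copies was not given in the sources used here.

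H2-DMa, the alpha chain of DM, had 2 peaks in ND, 2 in HFD and 1 in FAD. The peak shared by the 3 libraries (chr17:34124187-34124787) was low in each list, with scores of 68.8, 71.8 and 86.4. The second ND peak (score 53.9) and the second HFD peak (86.8) lay at different places, 5377 bp apart, and neither had a counterpart in another library. H2-DMb1 had a second FAD peak beyond its record, with a score of 55.2. H2-Ob, the beta chain of DO, had no peak in its window, and the nearest lay 5568, 4198 and 5855 bp from the record in ND, HFD and FAD.

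The classical class II genes were nearly free of peaks. H2-Aa and H2-Eb1 had none in any library, and the nearest peaks lay 15068, 9032 and 23758 bp from H2-Aa and 26101, 8512 and 46881 bp from H2-Eb1 in ND, HFD and FAD. H2-Ab1 had 1 peak in ND (chr17:34267289-34267676, 388 bp, score 68.1, percentile 22.8), and none in HFD or FAD. From that peak the nearest HFD peak lay 7452 bp away and the nearest FAD peak 8303 bp. When the window was widened to 5000 bp on each side, H2-Ab1 had 2, 2 and 1 peaks, so its difference between libraries rests on 1 weak call.

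The peaks counted for H2-Eb2 do not lie in H2-Eb2. They stood in ND at chr17:34342775-34343276 (502 bp, score 133, percentile 65.2) and in HFD at chr17:34342790-34343140 (351 bp, score 224, percentile 84.2), 1365 and 1380 bp past the end of the H2-Eb2 record. That place is inside the record of H2-Ea (chr17:34341952-34344645), the E alpha chain gene, which the RefSeq table lists as a transcribed pseudogene and which is not expressed in C57BL/6 mice. H2-Ea held a second peak in ND (score 60.5) and in HFD (51.8) and none in FAD. From the H2-Eb2 record the nearest FAD peak lay 66517 bp away. Without the added 2000 bp, H2-Eb2 was unmarked in all 3 libraries. In the 50% of peaks with the highest scores, and in lists of equal length, the ND and HFD peaks remained and FAD still had none. The HFD peak was narrower than the 367 bp at which the narrowest decile of HFD peaks ended.

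The classical class I genes were unmarked in ND. H2-K1 had 1 peak in HFD (chr17:33998466-33998981, 516 bp) with a score of 50, the lowest in that list, and 1 in FAD (chr17:33998461-33998828, 368 bp) with a score of 78.4, at percentile 35.3. The nearest ND peak lay 17618 bp from this region. With lists cut to equal length the HFD peak was gone and the FAD peak stayed. H2-D1 had 1 peak in HFD (chr17:35261376-35262255, 880 bp, score 102, percentile 51.2), which lay before the gene and ended 839 bp from the start site. No ND peak was within 4224 bp of it and no FAD peak within 4283 bp. This call stood among the 50% of HFD peaks with the highest scores, and it needs the added 2000 bp, since the record itself held no peak.

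Among the Q genes, H2-Q6, H2-Q7 and H2-Q10 were marked in every library and H2-Q1, H2-Q2 and H2-Q4 in none. H2-Q7, which encodes the Qa-2 antigen, had 1 peak in ND and 2 in both other libraries. Its shared region (chr17:35440529-35441296) scored 60.0 in ND, 110 in HFD and 183 in FAD, at percentiles 12.5, 55.4 and 81.4. The region nearer the start site (chr17:35439763-35440274) was called in HFD (score 115) and FAD (52.8), and the nearest ND peak began 515 bp from it. H2-Q10, known as a secreted class I molecule of liver, had 1 peak per library with scores of 56.6, 97.7 and 74.9. H2-Q6 differed in place, with peaks across the far end of its record that scored 257, 186 and 233, at percentiles 88.2, 78.4 and 88.3. Promoter identity was 75.0% between H2-Q6 and H2-Q7 and 82.6% between H2-D1 and H2-Q10. It was lower between H2-Q7 and H2-Q10 (60.9%) and between H2-K1 and H2-D1 (60.4%), and 49.3% between H2-Aa and H2-Eb1. Values of these related genes are uncertain where reads could be placed on either copy.

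H2-T24 had the most peaks of any member, 4 in ND, 3 in HFD and 4 in FAD. Its strongest region (chr17:36006833-36009015) scored 395 in ND, 349 in HFD and 343 in FAD, at percentiles 95.0, 93.2 and 94.8. HFD and FAD each called it as 1 wide peak, of 2095 and 2031 bp, and ND as 2 peaks of 704 and 1049 bp. The count of peaks thus differs here where the covered place does not. A second region of H2-T24 was shared by the 3 libraries (chr17:36013560-36014328, scores 143, 77.2 and 112). Another was called in HFD only (chr17:36017387-36018558, 1172 bp, score 151, percentile 70.5), with the nearest ND and FAD peaks 3059 and 3115 bp away. A weak region was called in ND and FAD (scores 58.4 and 51.6) and stood 992 bp from the nearest HFD peak, and a FAD peak (63.2) lay outside the record. The HFD region had the highest score among the 7 member regions found in a single library. All of these places overlap the record of the lncRNA gene A930015D03Rik, and all but the FAD peak of score 63.2 overlap that of H2-T24 too.

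Of the other T genes, H2-T23, which encodes Qa-1, and H2-T22 and H2-T3 had no peak. H2-T-ps, listed as protein-coding despite its symbol, had a weak peak past the end of the gene in ND (score 58.3) and in FAD (51.0), and none in HFD, where the nearest lay 5308 bp from the record. In the M series 11 of the 12 genes had no peak in any library. These include the 6 H2-M10 genes, known from the vomeronasal organ, and H2-M3, which presents formylated peptides. The records of these 11 genes are up to 5000 bp long, and most protein-coding genes that short lack a peak. Only 27.5% of such genes carried one in the ND list, 33.1% in the HFD list and 24.2% in the FAD list. Whether 0 of 11 departs from those shares was not tested. H2-M10.3 lay farthest from any peak, with 85312 bp to the nearest in ND, 85220 bp in HFD and 97451 bp in FAD. H2-M5 was the exception, with 1 peak per library, and these scored 55.8 in ND, 151 in HFD and 67.6 in FAD, at percentiles 7.11, 70.6 and 22.4. In FAD the peak spanned 310 bp, compared with 503 bp in ND and 741 bp in HFD.

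Measured from the start site, peaks of some genes fell at a like distance and those of other marked genes did not. The genes set side by side first were picked by hand, so their closeness was not tested. Of the 10 peaks of H2-K1, H2-Q7 and H2-Q10, all after the start, 8 had midpoints 1624 to 1887 bp from it. The other 2, the HFD and FAD peaks of H2-Q7 nearer the start, had midpoints at 858 and 933 bp. The first peaks of H2-DMa had midpoints 1607 to 1667 bp after the start. Those of H2-DMb2 stood at 3635 to 3672 bp and those of H2-DMb1 at 4358 to 4479 bp. Elsewhere midpoints stood at 150 to 388 bp for H2-M5 and 2234 to 2412 bp for H2-Oa. They stood at 4388 to 4415 bp for H2-T-ps and 5141 to 5284 bp for H2-Q6. The H2-D1 peak stood at -1279 bp, before the start. Positions of exons were not used here, so it is not stated which exon a peak covers. The start site is that of the first RefSeq promoter of each gene, and the records of H2-M5, H2-DMa, H2-DMb2 and some others begin before it. For H2-DMa it is chr17:34122832, just past the end of the Brd2 record (chr17:34112019-34122814).

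**Figure D2:**
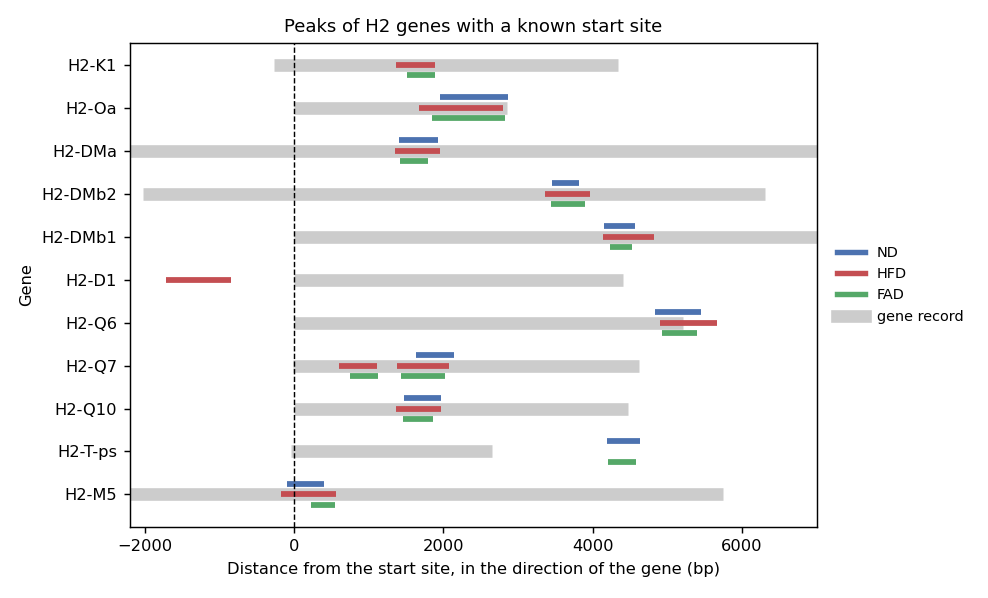
Peaks of the H2 genes with a RefSeq start site, by distance in bp from that site in the direction of the gene (x axis), with the gene record in grey and the ND, HFD and FAD peaks as coloured bars; 2 H2-DMa peaks, the second H2-DMb1 peak and those counted for H2-Eb2 lie beyond the axis. Of the 10 peaks of H2-K1, H2-Q7 and H2-Q10, 8 have midpoints 1624 to 1887 bp after the start and 2 of H2-Q7 lie nearer to it, and the H2-D1 peak of HFD stands before the start.

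The first comparison of the design, HFD with ND, asks where methylated regions differ with dietary fat. H2-K1 and H2-D1 carried a peak in HFD but not ND, 2 of 34 genes (5.88%), and over all genes this was 8.85%. H2-Ab1 and H2-T-ps carried one in ND but not HFD, also 2 of 34, against 1.94% of all genes. Both counts rest on single peaks, and no test is possible with 1 library a diet. Without the added 2000 bp, H2-D1 and H2-T-ps had no peak in any library. Over class I windows the number of distinct peaks was 9 in ND and 10 in HFD, a ratio of 1.11 (0.406 to 3.09), and over class II windows 7 and 6, a ratio of 0.857 (0.238 to 2.98). Intervals are exact 95% binomial intervals and cover counting error only. They treat the 2 counts as independent, although most member peaks overlap a peak of the other library. Both contain 1.33, the ratio of the whole lists, so a departure from the longer HFD list was not detectable at these numbers.

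The second comparison, FAD with HFD, concerns folic acid on the same high-fat food. H2-D1 and H2-Eb2 carried a peak in HFD but not FAD, 2 of 34 genes (11% of all genes), and H2-T-ps the other way (1.4% of all genes). Without the added 2000 bp, none of these genes had a peak in any library, and the peaks counted for H2-Eb2 lie in H2-Ea. Peak numbers were 10 and 11 in class I windows, a ratio of 1.10 for FAD to HFD (0.424 to 2.89), and 6 and 5 in class II windows, a ratio of 0.833 (0.201 to 3.28). The ratio of the whole lists was 0.707. Between FAD and ND, H2-K1 was marked in FAD only (4.05% of all genes) and H2-Ab1 and H2-Eb2 in ND only (6.74%). The corresponding ratios were 1.22 (0.460 to 3.34) for class I and 0.714 (0.179 to 2.61) for class II, and 0.941 for the whole lists. These comparisons share libraries and are not independent of each other. Over both classes each library had exactly 16 distinct peaks in the member windows, although the lists differ in length. Each ratio is thus 1, with an interval of 0.468 to 2.14 that contains the ratio of the whole lists. On that interval, which treats the 2 counts as independent, a departure from list length was not detectable.

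Most member peaks had a counterpart in the other libraries. Of the 16 ND peaks 12 overlapped an HFD peak (75.0%, exact 95% interval 47.6 to 92.7%), against 83.4% of the whole ND list, and 13 an FAD peak (81.3%, 54.4 to 96.0%), against 69.4%. Of the 16 HFD peaks 11 overlapped an ND peak (68.8%, 41.3 to 89.0%), against 61.9% of the whole list, and 12 an FAD peak (75.0%, 47.6 to 92.7%), against 58.6%. Of the 16 FAD peaks 12 overlapped an ND peak and 12 an HFD peak (75.0% each, 47.6 to 92.7%), against 74.4% and 84.5%. Each interval contains the share of the whole list. Joined where they overlap, the peaks formed 22 regions, of which 10 were found in all libraries, 5 in a pair of them and 7 in a single one. Among the 7, 3 were found in HFD, 2 in ND and 2 in FAD.

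Other genes of antigen presentation were read in the same way. Of 28 genes, 17 were marked in ND, 20 in HFD and 18 in FAD, beside 64.9%, 71.8% and 62.2% of all genes. Tap1 and Tap2, the peptide transporter that feeds class I molecules, lie among the class II genes and had 1, 2 and 2 and 3, 3 and 3 peaks in ND, HFD and FAD. Their neighbours Psmb8 and Psmb9, subunits of the immunoproteasome, had 1 peak in each library. B2m, the light chain of class I molecules, and the chaperone genes Calr and Canx had none. All 4 class II partner genes were marked throughout, among them Cd74, the invariant chain (2, 1 and 1 peaks), and the protease gene Ctss (3, 4 and 3). Ciita, the master activator of class II genes, had 4, 4 and 3 peaks, and Nlrc5, its class I counterpart, 6, 10 and 5 over a record of 92938 bp. Rfxap and Nfya, which encode parts of the complex at the promoter, had 1 HFD peak each and none in ND or FAD. Together 4 of the 28 genes carried a peak in HFD but not ND, and 1, Psme2, the reverse, beside 8.85% and 1.94% of all genes.

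Marker genes of cells that fat can hold gave 12, 14 and 11 of 17 leukocyte genes and 5, 9 and 6 of 10 adipocyte genes marked in ND, HFD and FAD, beside 64.9%, 71.8% and 62.2% of all genes. Their part in the H2 counts was not tested.

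Over the whole locus, from the start of H2-K1 to the end of H2-M2 (chr17:33996012-37483554, 3.49 Mb), there were 197 peaks in ND, 271 in HFD and 207 in FAD. That is 56.5, 77.7 and 59.4 peaks per Mb, compared with 48.3, 64.1 and 45.6 for chromosome 17 and 40.0, 54.1 and 37.6 for all autosomes. The ratio of HFD to ND was 1.38 (1.14 to 1.66), that of FAD to HFD 0.764 (0.634 to 0.919) and that of FAD to ND 1.05 (0.860 to 1.28). Each interval contains the ratio of the whole lists. With lists cut to equal length the first ratios came to 1.05 and 1.06, both with intervals that include 1.

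**Figure D3:**
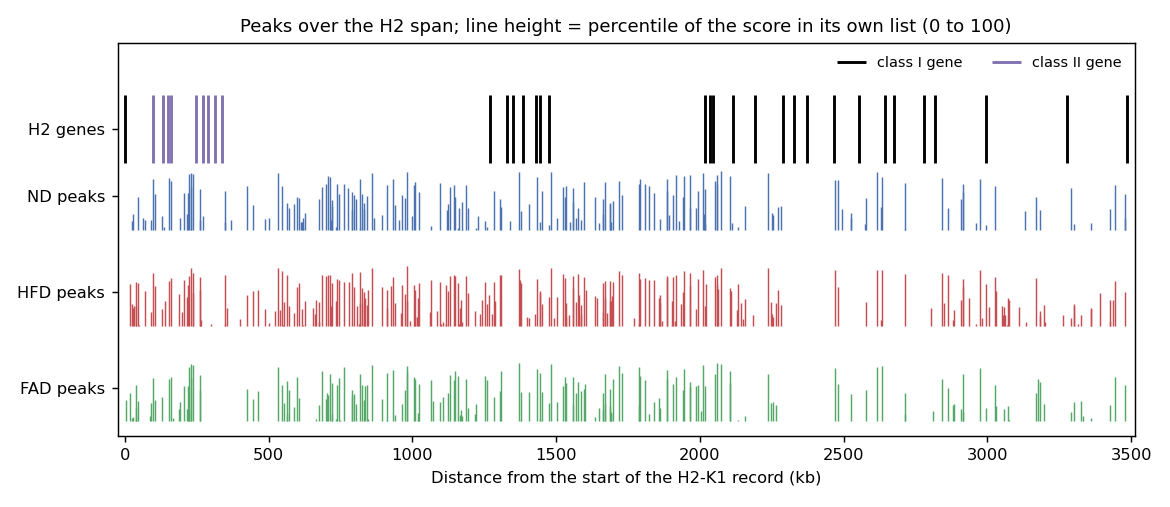
Peaks across the H2 locus by distance in kb from the start of the H2-K1 record, 1 row per library, with the height of each line giving the percentile of its score in its own list, and class I (black) and class II (purple) genes on top. Between H2-Eb2 and H2-D1 there are 74, 95 and 71 peaks in ND, HFD and FAD, and from H2-M10.2 to H2-M2, a longer stretch, 31, 52 and 36.

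Most peaks of the locus lay outside the H2 gene windows, which cover only 0.340 of its 3.49 Mb. These windows held 47.1 peaks per Mb in each library. The windows of all protein-coding genes held 44.8 in ND, 61.7 in HFD and 41.2 in FAD. Other protein-coding genes in the span numbered 135, and 73 of them (54.1%) were marked in ND, 93 (68.9%) in HFD and 70 (51.9%) in FAD, with a median record of 5142 bp. Of the 64 with records up to 5000 bp, 21 (32.8%), 30 (46.9%) and 20 (31.3%) were marked. Of the 20 H2 genes that short, 4, 5 and 5 were marked. The stretch between H2-Eb2 and H2-D1, which holds the class III genes such as those of complement, had 80.3, 103 and 77.0 peaks per Mb in ND, HFD and FAD. The stretch between H2-Q10 and H2-T24 had 77.5, 104 and 85.1. The stretch from H2-K1 to H2-Oa had 62.3, 114 and 104, the highest of the 8 in HFD and FAD. It is short, at 0.0964 Mb, and held 6, 11 and 10 peaks. From H2-Oa to H2-Eb2 the values were 68.3, 76.3 and 72.3, and from H2-D1 to H2-Q10 they were 52.0, 75.7 and 56.7. The M stretch, from H2-M10.2 to H2-M2, was lowest of the 8 stretches in each library, at 25.8, 43.4 and 30.0 peaks per Mb, below the autosomes.

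**Figure D4:**
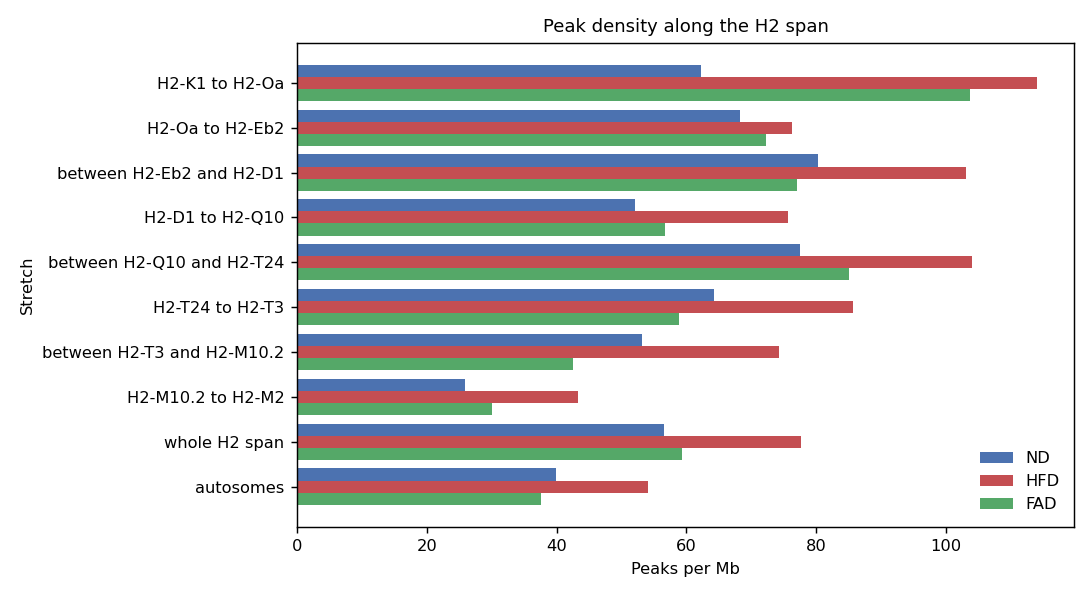
Peaks per Mb (x axis, from 0) in 8 consecutive stretches of the H2 locus, in the whole locus and over all autosomes, with 1 bar per library. The stretch from H2-M10.2 to H2-M2 is the lowest (25.8, 43.4 and 30.0 in ND, HFD and FAD), and the whole locus lies above the autosomes in each library.

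Within the M stretch the ratio of HFD to ND was 1.68 (1.06 to 2.71), from 52 and 31 peaks, an interval that contains the ratio of the whole lists. Gabbr1, which encodes a subunit of the GABA-B receptor and lies between H2-M5 and H2-M3, had 0 peaks in ND, 7 in HFD and 3 in FAD in its window, the largest gap between HFD and ND among the 169 protein-coding genes in the span. It was singled out after its values were seen. Its HFD peaks were weak, with scores from 50.1 to 94.4, and the nearest ND peak lay 26386 bp or more from each. Without the Gabbr1 window the stretch held 31, 45 and 33 peaks, and the ratio of HFD to ND was 1.45 (0.899 to 2.37). Because Gabbr1 had 0 ND peaks, leaving it out could only lower that ratio, so the drop is no test.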

How the data were processed

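MeDIP-seq peak lists of epididymal fat, 1 library per diet, were analysed, with groups taken from the labels. The deposited files give each peak's place and a score by the authors, and the build, mm10, is stated per the submitters' processing notes. Names of peaks carry the MACS prefix per the file contents. There is 1 list per library. What settings and control the caller had, which aligner was used and how reads with several matches were treated was not given in the sources used here. Gene records and promoters came from RefSeq tables of GRCm38.p6; 34 members were kept after leaving out records off the chromosomes' ordered run, and 31 matched a promoter. Peaks were counted by 1 bp of overlap with records extended by 2000 bp. The counts were checked against bedtools 2.31.1 and tested on simulated data. No test was made, since there is 1 library per diet. Alternatives were to keep the better-scoring 50% of each list, to shorten lists to 95501 peaks, 0 or 5000 bp on each side, peak midpoints, joining of peaks within 500 bp, and a reciprocal overlap of 50%. Every member is accounted for. Classical and loading genes, the Q, T and M genes with the most, no or differing peaks, and the highest-scoring regions are described singly by rule, but Gabbr1 was not. The members and lists were chosen with earlier results of these data known. Software was biopython 1.88, matplotlib 3.10.9, scipy 1.17.1, pandas 2.3.3 and numpy 2.4.6 under Python 3.11.15.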

Additional observations from a re-analysis of the deposited data

How the results depend on the processing

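Of 96 values recomputed under the alternatives, 91 stayed within 1.5 times (counts of genes) or within the counting interval (ratios and shares) of the value reported, and 5 did not. With the 50% of peaks that scored highest, 2 class I genes were marked in ND and 3 in FAD, in place of 6 and 7. With 5000 bp on each side 11 class I genes were marked in HFD, in place of 7. With equal-length lists the ratio over the locus was 1.05 for HFD to ND and 1.06 for FAD to HFD, in place of 1.38 and 0.764. That alternative sets the whole lists to the same number of peaks. Leaving out a library was not possible, and no paired analysis was possible because each diet has 1 library. Intervals over classes are wide because each rests on 5 to 11 peaks, and depth is unknown. A class ratio could thus move far and still count as within its interval. For class I and the better-scoring 50% of peaks, HFD to ND came to 2.33 in place of 1.11. FAD to HFD came to 0.571 in place of 1.10, on the other side of 1. All 15 values by peak midpoint were identical to those reported.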

Other observations

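The H2 records that are not protein-coding were read as well. Of 11 such records on the chromosome, 4 were marked in ND, 5 in HFD and 2 in FAD. Of protein-coding genes with records up to 5000 bp, 27.5%, 33.1% and 24.2% were marked, and a share over all records that are not protein-coding is not given here. H2-M6-ps, a pseudogene of the M stretch, had 1 peak per library inside its record, with scores of 222 in ND, 354 in HFD and 251 in FAD, at percentiles 84.6, 93.5 and 89.8. Its peaks scored above those of H2-M5, the 1 marked H2 gene that is protein-coding in that stretch, in each library. H2-Pa had 1, 1 and 2 weak peaks. H2-K2 had a peak outside its record in ND and HFD (scores 142 and 99.8) and none in FAD. H2-Ea had 2 inside its record in ND and in HFD, 1 of them also counted for H2-Eb2, and none in FAD. H2-Q5 had 1 in HFD only (59.7). H2-Pb, H2-Q3, H2-Bl, H2-T10, H2-M10.5-ps1 and H2-M4-ps had none in any library.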
